A study of Mus musculus with 22 samples.

Results

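The genes of aromatic amino acid and tryptophan catabolism examined here are 9 enzymes of the liver, found by their symbols among the 55573 genes of the count table: Tat, Hpd, Hgd and Fah of the tyrosine route and Tdo2, Ido2, Kmo, Kynu and Haao of the kynurenine route. Livers of 22 mice were profiled by mRNA sequencing, 1 library per mouse, to ask how loss of folliculin in hepatocytes alters the response to a diet that injures the liver. Cre mice carried wild-type Flcn on both alleles and 1 copy of Albumin-Cre, and liver-Flcn-/- mice carried 2 floxed Flcn alleles with the same transgene, so both genotypes express the recombinase from a hepatocyte promoter. Flcn was not measured by cell type. All mice were C57BL/6 and were given either a chow diet with 10 kcal percent fat or a diet without methionine and choline (MCD) for 6 weeks from 6 weeks of age. The paper describes the MCD diet as also high in sucrose and fat, and reports weight loss on it. The 2 diets came from different suppliers and so differ in more than methionine and choline. Chow was given to 6 Cre and 5 liver-Flcn-/- mice, and MCD to 5 Cre and 6 liver-Flcn-/- mice.

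In the tyrosine route Tat removes the amino group, Hpd and Hgd open the aromatic ring by way of homogentisate, and Fah splits the last intermediate into fumarate and acetoacetate. In the kynurenine route Tdo2, and to a lesser degree Ido2, open the indole ring of tryptophan, Kmo hydroxylates kynurenine, Kynu removes its alanine side chain, and Haao makes the precursor of quinolinate, from which NAD can be made. Both routes are marks of the mature hepatocyte, and Tat and Tdo2 are textbook targets of glucocorticoids.

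The depth was 15276157 to 19417246 counted reads per library for the chow-fed Cre mice and 18201287 to 21144388 for the MCD-fed ones. It was 13751347 to 19645473 for the chow-fed and 16616132 to 20706657 for the MCD-fed liver-Flcn-/- mice. Levels are given as CPM, counts relative to the library size after TMM scaling. Differences are log2 fold changes from 1 edgeR quasi-likelihood fit of the 4 groups over 14062 genes, with their standard error (SE) and a p adjusted over all 14062 genes by the Benjamini-Hochberg method. All 9 enzymes passed the filter on low counts (a mean of 10 over all libraries). A gene was called where this adjusted p was under 0.05.

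The tissue was checked before the enzymes were compared. The summed level of 10 hepatocyte markers, led by Alb, was 154600 ± 20408 CPM (SD, n = 6) in Cre mice on chow, while each of 6 kidney markers had at most 3 counts in every library. On chow Flcn stood at 31.7 ± 4.91 CPM (SD, n = 6) for Cre against 20.4 ± 2.78 CPM (SD, n = 5) for liver-Flcn-/- mice, a log2 fold change of −0.63 (SE 0.17, edgeR adjusted p = 0.025). On MCD it was at 29.2 ± 8.42 CPM (SD, n = 5) and 26.0 ± 5.13 CPM (SD, n = 6), a difference of −0.16 that was within the spread between mice (edgeR adjusted p = 0.57). The change of this difference with diet, the interaction of genotype and diet, was 0.47 with all 22 libraries and was not called (edgeR adjusted p = 0.24). Without 5 libraries that held both Y-linked and Xist RNA, the chow difference was −0.60 and was not called (edgeR adjusted p = 0.21). These counts cover the whole gene, whereas Albumin-Cre removes an exon of Flcn by the study's scheme, so they need not show the deletion. For the knockout the paper refers to a Western blot of FLCN protein in livers of mice on standard chow. Of the partners of Flcn, Fnip1 and Fnip2 were higher in liver-Flcn-/- mice on MCD, by 0.58 and 1.33 on the log2 scale (edgeR adjusted p = 0.0095 and 0.0017).

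Several libraries stood apart. Cre MCD 3 held 2766 CPM of 10 skeletal muscle genes, led by Myh1, against 133 CPM in Cre MCD 4, 61.4 CPM in FLCN KO MCD 3 and at most 17.2 CPM in the other MCD libraries. Its hepatocyte markers summed to 122016 CPM, the highest of the 5 Cre mice on MCD. It also held the highest CPM of each of the enzymes in that group. The sex of the mice is not in the labels: 10 libraries held 136 to 236 CPM of 4 Y-linked genes with at most 1.28 CPM of Xist, and 12 held at most 27.8 CPM with 223 to 417 CPM of Xist. Of these 12, 5 held more than 10 CPM of Y-linked genes beside Xist: Cre MCD 1 and FLCN KO Chow 2 (27.8 and 26.8 CPM), and FLCN KO MCD 3, FLCN KO Chow 4 and Cre Chow 2 (12.1, 11.8 and 10.9 CPM), where the other 7 held at most 3.15 CPM. The 5 chow libraries of high Y-linked level were also the 5 with a low share of uniquely mapped reads in the study's library statistics, so on chow these 2 properties cannot be told apart.

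The genes lie on 8 chromosomes (GRCm38, GENCODE M21). Of the tyrosine route, Tat (ENSMUSG00000001670) is at chr8:109990437-109999803 on the plus strand, Hpd (ENSMUSG00000029445) at chr5:123171807-123182727 on the minus strand, Hgd (ENSMUSG00000022821) at chr16:37580153-37632020 on the plus strand and Fah (ENSMUSG00000030630) at chr7:84585159-84606722 on the minus strand. Of the kynurenine route, Tdo2 (ENSMUSG00000028011) is at chr3:81957090-81976202 on the minus strand and Ido2 (ENSMUSG00000031549) at chr8:24531892-24576333 on the minus strand. Kmo (ENSMUSG00000039783) is at chr1:175620381-175662116 on the plus strand, Kynu (ENSMUSG00000026866) at chr2:43555329-43682715 on the plus strand and Haao (ENSMUSG00000000673) at chr17:83831156-83847963 on the minus strand. None of the 9 shares exonic bases with another annotated gene, although Hgd, Hpd and Kmo have other genes within or across their span.

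RefSeq's promoter table for GRCm38.p6 held a window of 250 bases before the RefSeq start of 7 of the 9 genes, all but Ido2 and Kynu. By the GENCODE M21 positions above, the windows of Fah, Tdo2, Kmo and Haao lie within the annotated gene. That of Kmo is at chr1:175631943-175632192, and the Hpd window overlaps the start of its gene. The promoters of Tat and Hgd are shown because both lie wholly outside the annotated gene and both genes fell with MCD in liver-Flcn-/- mice. Capitals mark matches, on either strand, to the CCAAT box or to the nuclear receptor half-site AGGTCA.
Tat, chr8:109990186-109990435, plus strand: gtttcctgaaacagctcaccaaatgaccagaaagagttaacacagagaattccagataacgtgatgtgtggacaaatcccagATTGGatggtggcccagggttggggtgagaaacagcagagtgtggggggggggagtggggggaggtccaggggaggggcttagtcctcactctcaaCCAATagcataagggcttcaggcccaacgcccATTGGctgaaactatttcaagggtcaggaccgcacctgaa
Hgd, chr16:37579903-37580152, plus strand: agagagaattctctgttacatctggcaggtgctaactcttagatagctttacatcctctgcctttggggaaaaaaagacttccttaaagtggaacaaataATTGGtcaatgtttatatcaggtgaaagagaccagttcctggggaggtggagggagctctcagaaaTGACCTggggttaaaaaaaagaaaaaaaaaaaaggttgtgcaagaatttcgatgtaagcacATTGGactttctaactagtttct

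CCAAT was found in 3 of the 7 promoters, with 3 matches in Tat, 2 in Hgd and 1 in Tdo2, and it occurs in 33.8% of the 32851 promoters of the same length. AGGTCA was found in the promoters of Hgd, Tdo2 and Haao, against 14% of all promoters. The HNF1 half-site GTTAAT was found in Haao alone, against 6.43%. The E-box CACGTG, the core of sites bound by TFE3 and TFEB, was in none of the 7, against 6.02%. These matches describe the letters in the windows, several of which lie within the annotated gene, and were not tested as binding sites.

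In Cre mice on chow the enzymes spanned a wide range of levels per length of exon. This length merges the exons of all annotated transcripts of a gene, so the order need not be that of transcript numbers. Per kilobase of exon, Hpd had the highest level, 1281 ± 256 CPM per kb (SD, n = 6), followed by Tat with 677 ± 374, Tdo2 with 465 ± 140, Fah with 386 ± 16.8 and Hgd with 344 ± 37.4. Haao followed with 148 ± 10.5, Kmo with 76.7 ± 14.4, Kynu with 38.6 ± 8.25 and Ido2 with 25.0 ± 2.10. In this order Tat and Tdo2, and Tdo2 and Fah, differed by less than the larger SD of the pair, and the other neighbours by more. As a share of all counted reads, the 9 genes took 0.785 ± 0.131% (SD, n = 6) in Cre mice on chow and 0.409 ± 0.0885% (SD, n = 5) on MCD. Among liver-Flcn-/- mice the share was 0.655 ± 0.0621% (SD, n = 5) on chow and 0.337 ± 0.0438% (SD, n = 6) on MCD.

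**Figure D1:**
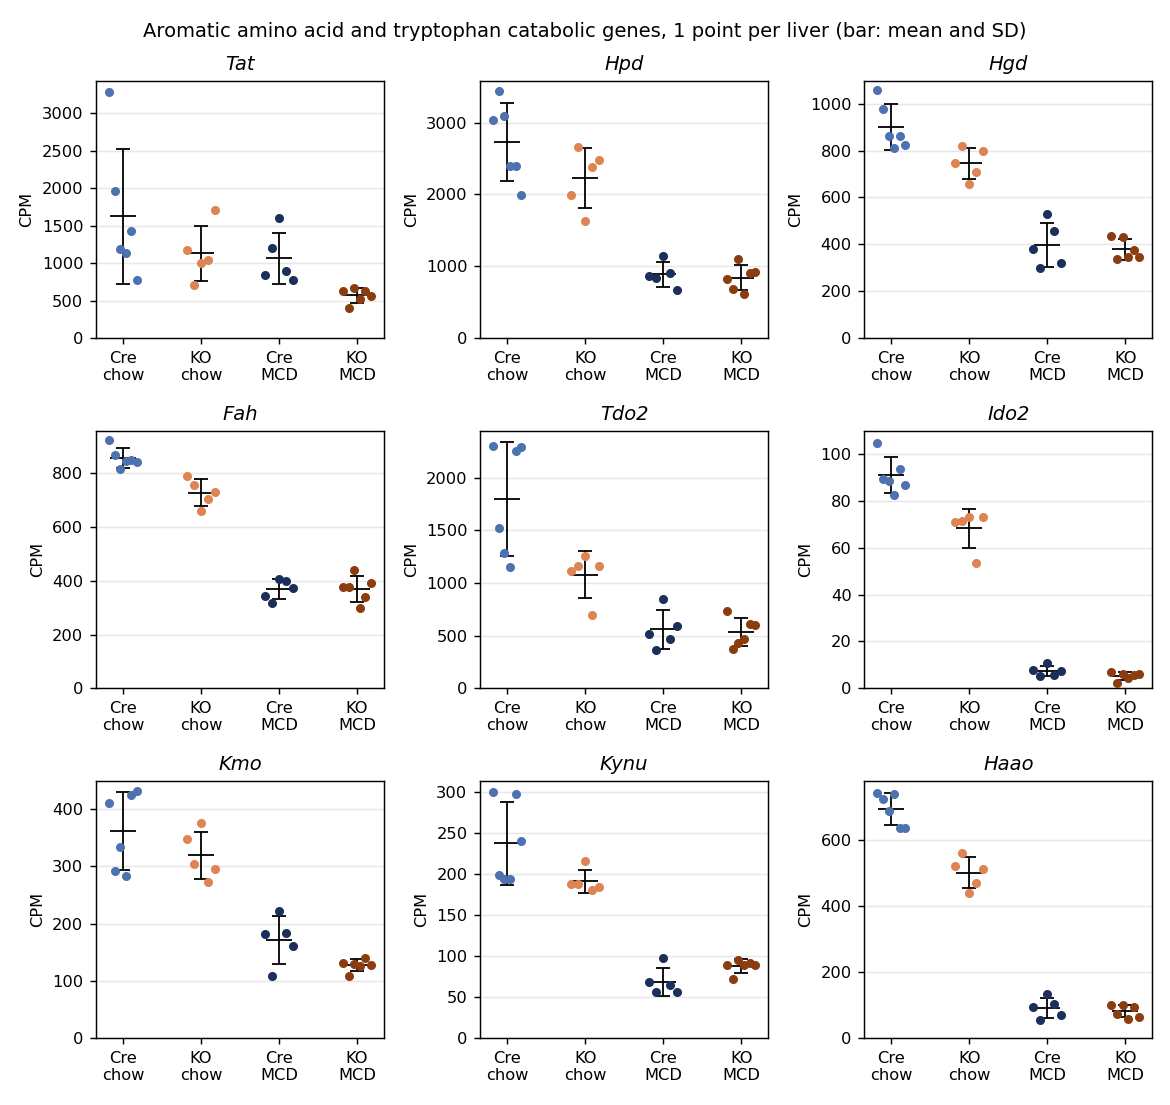
Level of each of the 9 enzymes in CPM (vertical axes, starting at 0) in the 4 groups, with 1 point per liver and bars for the mean and SD (KO: liver-Flcn-/- mice). Except for Tat in Cre mice and Tdo2 in liver-Flcn-/- mice, every liver on MCD lay below every liver of the same genotype on chow.

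Most enzymes of both routes fell with MCD in both genotypes. In Cre mice 8 of the 9 enzymes were called lower and none higher, where 28.2% of all tested genes were called lower, 29.3% higher and 57.5% in either direction. In liver-Flcn-/- mice all 9 were called lower, where 22.5% of all tested genes were called lower and 45.0% in either direction. The median log2 fold change of the 9 was −1.62 in Cre and −1.12 in liver-Flcn-/- mice, beside 0.01 and 0.00 for all tested genes. In each genotype 8 of the 9 had every MCD liver below every chow liver, as did 16.9% of tested genes in Cre and 14.8% in liver-Flcn-/- mice. Of 10 hepatocyte markers 8 were called lower in each genotype, with median log2 fold changes of −0.99 and −0.65, and Ahsg was called higher in liver-Flcn-/- mice, by 0.63 (edgeR adjusted p = 4.8e-04), and was at 0.19 in Cre mice (adjusted p = 0.21). Fewer hepatocytes and less RNA per hepatocyte cannot be told apart in whole liver.

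Markers of other liver cells also differed between the diets. In Cre mice 6 of 8 stellate cell markers, led by Dcn, were called higher and none lower (median log2 fold change 1.07), as were 4 of 6 cholangiocyte markers, led by Spp1 (1.12), 4 of 4 tested neutrophil markers, led by S100a9 (2.90), and 5 of 6 dendritic cell markers, led by Itgax (1.65). In liver-Flcn-/- mice the counts called higher were 1 of 8, 1 of 6, 3 of 4 and 1 of 6, with medians of −0.06, 0.54, 1.53 and 0.30, and 1 stellate cell marker was called lower. Of 7 endothelial markers, led by Stab2, 3 were called lower and 1 higher in Cre and 5 lower in liver-Flcn-/- mice. Macrophage markers, led by Cd5l, split into 2 called lower and 4 higher of 10 in Cre, and 3 lower and 1 higher in liver-Flcn-/- mice. Lymphocyte markers, led by Ptprc, had 1 of 5 tested called higher in Cre and 3 lower in liver-Flcn-/- mice. By the genotype by diet interaction, the response to MCD was called lower in liver-Flcn-/- mice for 3 of 8 stellate, 2 of 10 macrophage, 2 of 6 dendritic and 1 of 6 cholangiocyte markers and for no endothelial, neutrophil or lymphocyte marker, and higher for none of these, where 5.54% of all tested genes were called lower. Without the 5 libraries with both Y-linked and Xist RNA 1 macrophage and 1 cholangiocyte marker and none of the stellate and dendritic markers were called, while the interactions stayed negative, from −2.99 to −2.57 for Col1a1, from −2.25 to −1.98 for Col3a1 and from −2.88 to −2.55 for Itgax (edgeR adjusted p = 0.070, 0.13 and 0.085). The summed stellate cell markers were at 333 ± 80.8 CPM (SD, n = 6) on chow and 614 ± 142 CPM (SD, n = 5) on MCD for Cre, and at 381 ± 76.7 CPM (SD, n = 5) and 421 ± 41.5 CPM (SD, n = 6) for liver-Flcn-/- mice. The sums of the cholangiocyte, neutrophil and dendritic cell markers were 64.3, 5.94 and 3.69 CPM on chow and 143.9, 32.7 and 22.1 CPM on MCD for Cre, and 124, 6.44 and 6.09 CPM on chow and 121, 18.2 and 10.1 CPM on MCD for liver-Flcn-/- mice. No marker of these lists was at 3 counts or fewer in every library. The part of these cells in the fall of the 9 enzymes was not tested.

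Ido2, the second dioxygenase of tryptophan, had the largest drop of the 9. In Cre mice it ran from 82.6 to 104.6 CPM on chow, with a median of 88.9, and stood at 7.86, 5.04, 10.7, 5.58 and 7.17 CPM in the 5 livers on MCD. The liver-Flcn-/- livers had 70.9, 71.2, 72.9, 53.3 and 73.0 CPM on chow and from 2.45 to 6.95 CPM, with a median of 5.89, on MCD. The diets were separated by a wide gap in both genotypes. The level was 12.5-fold lower on MCD in Cre mice (log2 fold change −3.64, SE 0.21, edgeR adjusted p = 2.6e-11) and 12.9-fold lower in liver-Flcn-/- mice (−3.69, SE 0.21, edgeR adjusted p = 2.9e-11). The drop was not at the limit of detection, since each MCD liver still had between 57 and 229 counts on Ido2. Ido1, which catalyses the same reaction mainly in immune cells, had at most 3 counts in every library and was not tested.

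Haao, which opens the ring of 3-hydroxyanthranilate, followed. On chow it ran from 635 to 742 CPM in Cre mice, with a median of 704, and on MCD it was at 95.8, 55.8, 133.9, 104.0 and 70.8 CPM. The liver-Flcn-/- livers had 520, 561, 440, 471 and 513 CPM on chow and from 58.0 to 101.2 CPM, with a median of 84.6, on MCD. No MCD liver came near the chow livers. The log2 fold change was −2.91 (SE 0.19, edgeR adjusted p = 9.8e-11) in Cre and −2.60 (SE 0.18, edgeR adjusted p = 3.9e-10) in liver-Flcn-/- mice.

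Tdo2, the main hepatic tryptophan dioxygenase, fell less than Ido2. It ran from 1151 to 2302 CPM in Cre mice on chow, with a median of 1893, and was at 513, 368, 850, 469 and 593 CPM on MCD. For liver-Flcn-/- mice the values were 1113, 1167, 1258, 696 and 1163 CPM on chow and 372 to 733 CPM, with a median of 532, on MCD, so that the lowest chow liver lay within the MCD range. The log2 fold change was −1.69 (SE 0.24, edgeR adjusted p = 4.4e-06) in Cre and −1.01 (SE 0.23, edgeR adjusted p = 0.0011) in liver-Flcn-/- mice.

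Kmo and Kynu act on kynurenine and its hydroxylated form. Kmo went from 362 ± 67.8 CPM (SD, n = 6) on chow to 171 ± 41.4 CPM (SD, n = 5) on MCD in Cre mice, a log2 fold change of −1.08. With Flcn deleted it went from 319 ± 41.5 CPM (SD, n = 5) to 127 ± 10.3 CPM (SD, n = 6), or −1.32. Both changes were called (edgeR adjusted p = 3.5e-06 and 3.6e-07). Kynu ran from 193 to 300.1 CPM in Cre mice on chow, with a median of 219, and was at 68.5, 56.6, 98.2, 65.4 and 56.6 CPM on MCD. The liver-Flcn-/- livers held 188, 187, 215, 180.5 and 184 CPM on chow and from 71.8 to 95.8 CPM, with a median of 89.6, on MCD. Kynu thus fell in both genotypes without overlap, by 1.78 on the log2 scale in Cre mice and by 1.12 in liver-Flcn-/- mice (edgeR adjusted p = 3.0e-09 and 1.8e-06).

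In the tyrosine route the 3 enzymes after Tat fell in both genotypes. Hpd, which forms homogentisate, ran from 1998 to 3438 CPM in Cre mice on chow and from 672 to 1147 CPM on MCD, a log2 fold change of −1.62 (SE 0.18, edgeR adjusted p = 1.3e-07). It ran from 1632 to 2661 CPM and from 610 to 1100 CPM in the liver-Flcn-/- livers, or −1.41 (SE 0.17, edgeR adjusted p = 1.1e-06). Hgd, which cleaves homogentisate, changed by −1.18 in Cre and −0.97 in liver-Flcn-/- mice, and Fah, the last enzyme, by −1.22 and −0.97. All 4 of these changes were called, with edgeR adjusted p between 9.5e-10 and 2.7e-06. Fah was also the least variable of the 9 among Cre mice on chow, with a coefficient of variation of 4.34%.

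Tat, the first enzyme of the route, was the exception in Cre mice and the most variable of the 9 there, with a coefficient of variation of 55.3% on chow. It ran from 781 to 3286 CPM in Cre mice on chow, with a median of 1304, and was at 844, 1206, 1597, 890.4 and 779.7 CPM on MCD. All but the lowest of the MCD livers lay within the chow range, and the log2 fold change of −0.61 was not called (SE 0.29, edgeR adjusted p = 0.076). In liver-Flcn-/- mice Tat was at 1179, 708, 1009, 1046 and 1711 CPM on chow and ran from 405 to 673.8 CPM, with a median of 599, on MCD, without overlap. That change, −0.98, was called (SE 0.29, edgeR adjusted p = 0.0079). The difference between these responses was −0.37 (SE 0.41, edgeR adjusted p = 0.63 for the interaction), with a 95% interval from −1.21 to 0.47. Cre Chow 1, with 3286 CPM, weighed on the Cre response, which was −0.29 without it (edgeR adjusted p = 0.33). It was called without Cre MCD 3, at −0.81, and without Cre Chow 6, at −0.76 (edgeR adjusted p = 0.027 and 0.024).

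**Figure D2:**
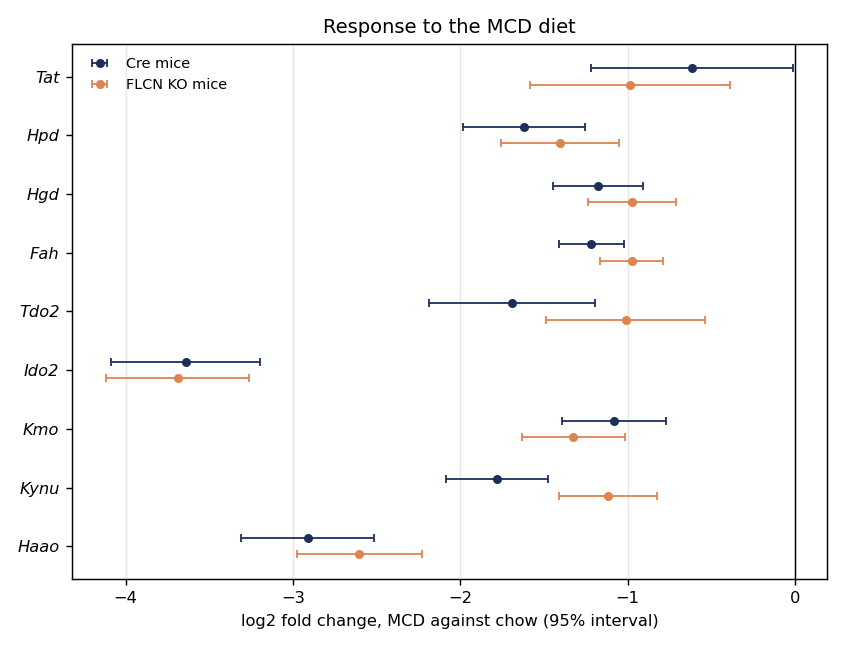
Log2 fold change of each enzyme with MCD against chow (horizontal axis) in Cre and liver-Flcn-/- (FLCN KO) mice, with points for the edgeR estimates and bars for the 95% intervals. All 18 estimates lie below 0, and Ido2 and Haao lie farthest from it in both genotypes.

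Most of the other tested genes of the 2 pathways fell with MCD in each genotype. Of 11 further genes of phenylalanine and tyrosine metabolism that were tested, 9 were called lower in Cre mice and none higher, beside 28.2 and 29.3% of all tested genes. In liver-Flcn-/- mice 9 were lower and 1 higher, beside 22.5% of all tested genes in each direction. The median log2 fold changes of the 11 were −1.01 and −0.94. Qdpr, which regenerates tetrahydrobiopterin, changed by −1.51 in Cre and −1.31 in liver-Flcn-/- mice, and Gch1, which starts the synthesis of that cofactor, by −1.26 and −1.11. Gstz1, which acts between Hgd and Fah, changed by −0.70 and −0.51. These 6 changes were all called (largest edgeR adjusted p 2.0e-04). Got2, the mitochondrial aspartate aminotransferase, was the 1 gene called higher, by 0.25 in liver-Flcn-/- mice (edgeR adjusted p = 0.012).

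Of 9 further genes of tryptophan and kynurenine metabolism that were tested, all 9 were called lower in each genotype, with median log2 fold changes of −1.02 and −0.71. Of all tested genes 28.2% were called lower in Cre and 22.5% in liver-Flcn-/- mice. Afmid, the formamidase between Tdo2 and Kmo, changed most: from 53.4 ± 16.4 CPM (SD, n = 6) to 4.63 ± 1.30 CPM (SD, n = 5) for Cre, and from 43.1 ± 9.66 CPM (SD, n = 5) to 6.90 ± 1.65 CPM (SD, n = 6) for liver-Flcn-/- mice. The log2 fold changes were −3.53 and −2.64 (edgeR adjusted p = 2.9e-10 and 1.1e-08). Aadat, a kynurenine aminotransferase, changed by −1.84 and −1.33, and Aldh8a1, of the glutarate branch, by −1.35 and −0.91, each called. Acmsd and Qprt stand at the fork after Haao, where Acmsd diverts the intermediate from NAD synthesis and Qprt commits quinolinate to it. Acmsd changed by −1.02 in Cre and by −2.38 in liver-Flcn-/- mice, and Qprt by −0.96 and −0.59.

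**Figure D3:**
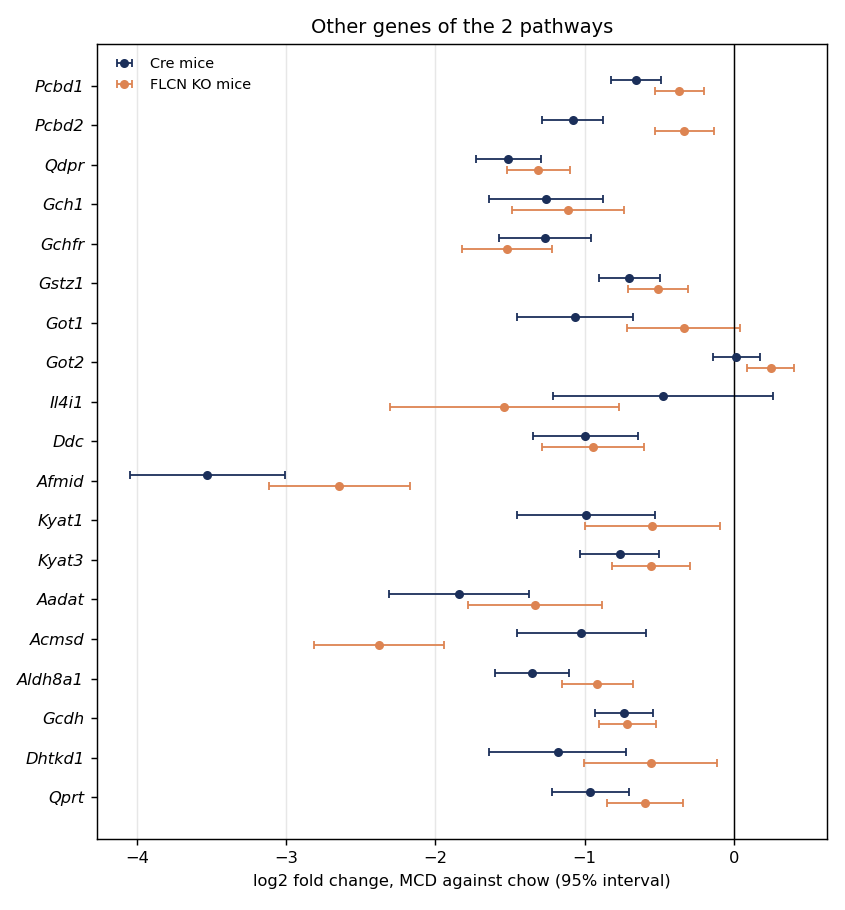
Log2 fold change with MCD against chow (horizontal axis) of other tested genes of both pathways in Cre and liver-Flcn-/- (FLCN KO) mice, with points for the edgeR estimates and bars for the 95% intervals. Afmid has the lowest estimate in both genotypes, and Got2 lies at or above 0 in both.

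A list of regulators was read beside these genes: transcription factors, receptors and a coactivator, among them Tfeb, Tfe3 and Mitf, with the enzyme Hsd11b1. Of 20 regulators, 11 were called lower and 3 higher with MCD in Cre mice, where 28.2% of all tested genes were lower and 29.3% higher. In liver-Flcn-/- mice 9 were lower and 1 higher, where 22.5% of tested genes were called in each direction. Their median log2 fold changes were −0.36 and −0.25. Nr3c1, the glucocorticoid receptor, changed by −0.97 in Cre and −0.68 in liver-Flcn-/- mice (edgeR adjusted p = 1.8e-06 and 1.7e-04). Hsd11b1, which regenerates active glucocorticoid in the liver, changed by −1.80 and −0.94 (edgeR adjusted p = 2.3e-06 and 0.0022). The hepatocyte factors Cebpa and Foxa2 changed by −0.87 and −1.44 in Cre and by −0.43 and −0.68 in liver-Flcn-/- mice, all called. Hnf4a changed by −0.68 in Cre mice (edgeR adjusted p = 7.0e-05) and by −0.20 in liver-Flcn-/- mice, where it was not called (edgeR adjusted p = 0.18). Ppargc1a, a coactivator of the fasting response, was the 1 regulator called higher in liver-Flcn-/- mice, by 1.05.

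Of 11 tested genes known to respond to glucocorticoids, 4 were called lower and 4 higher in each genotype, beside the same shares of all tested genes, and their median log2 fold changes were −0.24 and 0.38. Tsc22d3 changed by −1.49 in Cre and −1.39 in liver-Flcn-/- mice and G6pc by −2.47 and −1.82, while Fkbp5 changed by 1.17 and 1.75 and Per1 by 1.42 and 1.56. All 8 changes passed (largest edgeR adjusted p 0.0011).

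The balance between enzymes along each route was read as the log2 ratio of the counts of 2 enzymes in each liver, which does not depend on library scaling. These ratios were added after the levels had been seen. There were 7 ratios in 4 comparisons, tested by two-sided exact permutation over all 462 splits and adjusted over the 28 tests. The smallest p these splits can give is 0.0022, or 0.0087 after adjustment. The ratio of Ido2 to Tdo2 fell by 2.00 with MCD in Cre and by 2.73 in liver-Flcn-/- mice, without overlap (adjusted exact p = 0.0087 in each). The ratio of Haao to Kynu fell by 1.19 and 1.51, also without overlap (adjusted exact p = 0.0087 in each). The ratio of Hgd to Hpd was higher on MCD by 0.41 and 0.43, with overlap (adjusted exact p = 0.030 and 0.042). The ratio of Hpd to Tat fell by 1.11 with MCD in Cre mice (adjusted exact p = 0.024) and differed by −0.47 in liver-Flcn-/- mice (adjusted exact p = 0.11). Kmo rose relative to Tdo2 by 0.59 in Cre mice, without overlap (adjusted exact p = 0.015), and the same ratio differed by −0.30 in liver-Flcn-/- mice (adjusted exact p = 0.17). The ratio of Fah to Hgd differed by −0.02 and −0.004 between diets, less than its spread between livers (adjusted exact p = 0.92 and 0.96).

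Where the genotypes were compared on MCD, 2 ratios separated them completely. The ratio of Hpd to Tat was −0.23 ± 0.27 (SD, n = 5) in Cre and 0.55 ± 0.21 (SD, n = 6) in liver-Flcn-/- mice on the log2 scale (adjusted exact p = 0.0087). The ratio of Kynu to Kmo was −1.30 ± 0.24 (SD, n = 5) and −0.54 ± 0.071 (SD, n = 6), a difference of 0.77 (adjusted exact p = 0.0087). With MCD this second ratio fell by 0.69 in Cre mice (adjusted exact p = 0.0087) and was higher by 0.20 in liver-Flcn-/- mice (adjusted exact p = 0.024). On chow it overlapped between the genotypes, with −0.62 ± 0.16 (SD, n = 6) and −0.73 ± 0.11 (SD, n = 5) (adjusted exact p = 0.28). The ratio of Kmo to Tdo2 was the 1 ratio past the threshold between genotypes on chow, higher by 0.54 in liver-Flcn-/- mice with overlap (adjusted exact p = 0.028). The diet and genotype comparisons share livers and are not independent of each other.

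**Figure D4:**
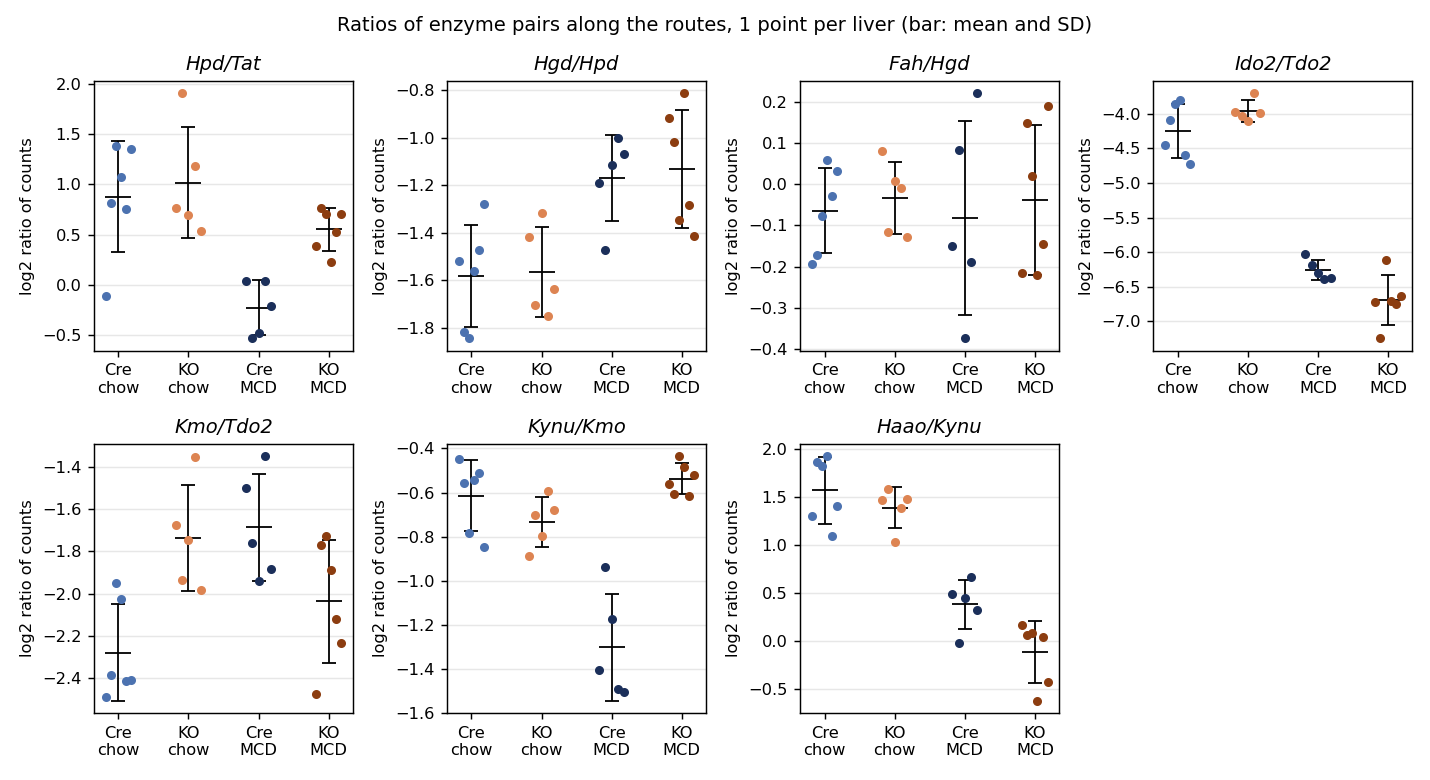
Log2 ratio of the counts of pairs of enzymes along the routes (vertical axes) in the 4 groups, with 1 point per liver and bars for the mean and SD (KO: liver-Flcn-/- mice). Ido2 against Tdo2 and Haao against Kynu were lower on MCD in both genotypes, Fah against Hgd overlapped in all 4 groups, and Kynu against Kmo set Cre mice on MCD apart from liver-Flcn-/- mice on MCD.

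On chow none of the 9 enzymes was called between the genotypes, where 8.62% of tested genes were called in either direction, 3.10% lower and 5.52% higher. All 9 estimates were negative, with a median of −0.31 beside −0.03 for all tested genes, and 6 of the 9 had an unadjusted edgeR p under 0.05 (Hgd, Fah, Tdo2, Ido2, Kynu and Haao), as did 23.5% of all tested genes. The TMM factors on chow ran from 0.815 to 0.889 in Cre and from 0.919 to 0.969 in liver-Flcn-/- mice. This scaling lowers the liver-Flcn-/- levels relative to the Cre levels, and no fit used library totals without such factors. DESeq2 called Tdo2, as did 6 of the 22 edgeR fits that left out 1 mouse. The Tdo2 difference was −0.74 (SE 0.23, edgeR adjusted p = 0.050025), from 1803 ± 542 CPM (SD, n = 6) to 1079 ± 221 CPM (SD, n = 5). In TMM-scaled CPM Haao, Fah and Ido2 lay lower in every liver-Flcn-/- mouse than in any Cre mouse, 3 of the 9 enzymes where 2.93% of tested genes did, with differences of −0.47, −0.24 and −0.41 (edgeR adjusted p = 0.098, 0.11 and 0.18). By library totals Fah overlapped, with 10467 of 15276157 counts in Cre Chow 6 and 10167 of 13751347 in FLCN KO Chow 1. With only the chow groups in the fit, Haao and Ido2 were called (edgeR adjusted p = 0.0090 and 0.024) and Tdo2 was not. The 10 hepatocyte markers were negative in the same comparison, with a median of −0.26 and 1, Ttr, called lower (−0.46), which was not called without the 5 libraries with both Y-linked and Xist RNA (−0.49, edgeR adjusted p = 0.082). Most markers of other cells stood the other way. The estimates were positive for 5 of 5 tested lymphocyte markers (median 0.80), 6 of 6 dendritic (0.65), 7 of 8 stellate (0.21), 6 of 7 endothelial (0.16), 9 of 10 macrophage (0.16), 3 of 4 neutrophil (0.19) and 4 of 6 cholangiocyte markers (0.08). Among these Spp1 (1.21), Stab2 (0.76) and Marco (2.01) were called higher, and the first 2 also without the 5 libraries. Their part in the differences was not tested.

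Within Cre mice on chow, the 3 livers with Y-linked RNA and a low uniquely mapped share had the 3 highest levels of Tdo2 (2302, 2259 and 2294 CPM), Kmo (410, 424 and 432 CPM) and Kynu (300.1, 297 and 240 CPM). The 3 other livers were at 1527, 1285 and 1151 CPM for Tdo2. Other enzymes did not follow this order: Haao was at 742, 635 and 635 CPM in the same 3 livers, the last 2 the lowest of the group, and Hpd at 3031, 2401 and 1998 CPM. Among liver-Flcn-/- mice on chow the 2 such livers had 1113 and 1258 CPM of Tdo2, and the others 1167, 696 and 1163 CPM. Without the 5 such chow libraries, the Tdo2 difference between genotypes was −0.39 (edgeR adjusted p = 0.55), and with the Y-linked level as a covariate it was −0.71 (edgeR adjusted p = 0.0496).

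Among the other pathway genes on chow, Gstz1 and Qdpr were called lower in liver-Flcn-/- mice, by 0.34 and 0.39 on the log2 scale (edgeR adjusted p = 0.031 and 0.019). They were 2 of 20 tested, beside 8.62% of all tested genes. Gstz1 was called in 6 and Qdpr in 8 of the 11 alternatives, and in 15 and 20 of the 22 fits that left out 1 mouse. Neither was called without FLCN KO Chow 3 or FLCN KO Chow 4, which left 0 calls, and without Cre MCD 2 the count was 4. None of the 9 other tryptophan genes was called by edgeR in this comparison.

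On MCD 2 of the 9 enzymes, Tat and Kmo, were called lower in liver-Flcn-/- mice, where 16.6% of tested genes were called in either direction, 8.53% lower and 8.06% higher. The median of the 9, −0.07, was near that of all tested genes, −0.01. Tat was at 1064 ± 341 CPM (SD, n = 5) in Cre against 572 ± 98.2 CPM (SD, n = 6) in liver-Flcn-/- mice, without overlap, as were 3.53% of tested genes in this direction. The Tat difference was −0.90 (SE 0.29, edgeR adjusted p = 0.036), and with the replicate number as a block it was −0.82 (edgeR adjusted p = 0.082). Without Cre MCD 3, the liver with muscle RNA and the highest Tat of its group, it was −0.70 (edgeR adjusted p = 0.10). Without the 5 libraries with both Y-linked and Xist RNA it was −1.02 (edgeR adjusted p = 0.067). Leaving out Cre MCD 2 or FLCN KO MCD 2, 4 or 6 also ended the call, with edgeR adjusted p from 0.062 to 0.070.

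Kmo was at 182, 108, 221, 184 and 161 CPM in the Cre livers on MCD and ran from 109 to 140.4 CPM, with a median of 128, in the liver-Flcn-/- livers. All but 1 of the Cre livers were above all liver-Flcn-/- livers. The difference of −0.43 was just inside the threshold (SE 0.15, edgeR adjusted p = 0.0496) and passed in 5 of the 22 fits that left out 1 mouse. It was −0.41 without the 5 libraries with both Y-linked and Xist RNA (edgeR adjusted p = 0.16). Kynu stood the other way, 69.1 ± 17.1 CPM (SD, n = 5) in Cre against 87.9 ± 8.29 CPM (SD, n = 6) in liver-Flcn-/- mice, a difference of 0.35 that was not called (SE 0.14, edgeR adjusted p = 0.098). It was called without Cre MCD 3, at 0.51 (edgeR adjusted p = 0.0092), and with the Y-linked covariate, at 0.37 (edgeR adjusted p = 0.049). The other 6 enzymes differed by −0.46 to 0.01, and none was called. For Fah the 95% interval of the difference ran from −0.18 to 0.19, for Hgd from −0.33 to 0.20 and for Tdo2 from −0.54 to 0.41.

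**Figure D5:**
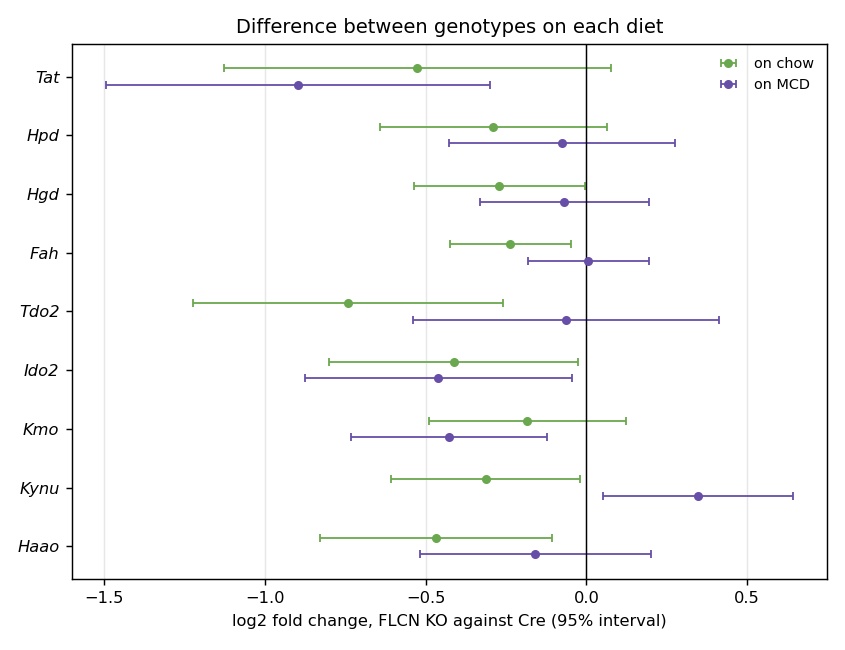
Log2 fold change of each enzyme in liver-Flcn-/- (FLCN KO) against Cre mice (horizontal axis) on chow and on MCD, with points for the edgeR estimates and bars for the 95% intervals. On chow all 9 estimates are below 0 and none was called, and on MCD Tat and Kmo were called lower while Kynu has the highest estimate. The intervals are not adjusted for the number of genes tested.

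The response to MCD was compared between genotypes through the interaction of genotype and diet, which shares its livers with the comparisons above. Kynu alone of the 9 was called, where 8.83% of tested genes were called in either direction, 3.29% higher and 5.54% lower. The interaction of Kynu was 0.66 (SE 0.20, edgeR adjusted p = 0.042), a smaller fall in liver-Flcn-/- mice, and it passed in 6 of the 22 fits that left out 1 mouse. It was 0.82 without Cre MCD 3 (edgeR adjusted p = 0.0062), 0.44 without the 5 chow libraries of low uniquely mapped share (edgeR adjusted p = 0.22) 0.66 when replicate numbers were a block (edgeR adjusted p = 0.073) and 0.64 without the 5 libraries with both Y-linked and Xist RNA (edgeR adjusted p = 0.25). Tdo2 had an interaction of similar size, 0.68, with a larger error (SE 0.33, edgeR adjusted p = 0.20). Kynu and Kmo are also expressed in macrophages. Of 10 macrophage markers, led by Cd5l, 3 were called lower and 1 higher in liver-Flcn-/- mice on MCD, beside 8.53 and 8.06% of all tested genes. Without the 5 libraries with both Y-linked and Xist RNA 2 of these 4 calls were left. The 2 others were then at −0.71 and 0.90, from −0.86 and 0.89 (edgeR adjusted p = 0.082 and 0.064). The macrophage markers summed to 651 ± 146 CPM (SD, n = 5) in Cre against 499.8 ± 154 CPM (SD, n = 6) in liver-Flcn-/- mice, and none was at 3 counts or fewer throughout. Their part in the Kynu and Kmo values was not tested.

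In the rest of the pathways, 5 of 20 tested genes were called between genotypes on MCD, beside 16.6% of all tested genes. Qprt was higher in liver-Flcn-/- mice by 0.51 and Acmsd lower by 0.91 on the log2 scale (edgeR adjusted p = 0.0064 and 0.0043). Qprt was at 114 ± 9.0 CPM (SD, n = 5) in Cre against 163 ± 11.3 CPM (SD, n = 6) in liver-Flcn-/- mice, and Acmsd at 19.9 ± 4.12 CPM (SD, n = 5) and 10.6 ± 1.81 CPM (SD, n = 6). Ddc, the aromatic amino acid decarboxylase, and Pcbd2, of cofactor recycling, were higher by 0.52 and 0.53 (edgeR adjusted p = 0.036 and 7.5e-04), and Gchfr, a regulator of Gch1, was lower by 0.57 (edgeR adjusted p = 0.0092). The interaction was called for Acmsd, −1.35 (edgeR adjusted p = 0.0067), and Pcbd2, 0.75 (edgeR adjusted p = 0.0025), 2 of the 20 beside 8.83% of all tested genes. The count was 4 without Cre Chow 6 and 6 without Cre MCD 3. Without the 5 libraries with both Y-linked and Xist RNA neither interaction was called (−1.15 and 0.67, edgeR adjusted p = 0.094 and 0.070), and of the 5 differences on MCD that of Ddc was not (edgeR adjusted p = 0.097).

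The enzymes varied together to different degrees among livers of the same group. After group means were removed, Pearson's r over the 22 libraries was 0.87 for Hgd with Haao, 0.80 for Kmo with Kynu, 0.79 for Tdo2 with Kmo and 0.74 for Tdo2 with Kynu. It was −0.03 for Hpd with Kmo and 0.02 for Hpd with Tdo2. Tat was highest with Hpd, at 0.53. These values describe libraries that share groups, depth and scaling, and they carry no test.

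Over all 22 libraries, where the diet sets most of the spread, the tested genes most like each enzyme in log2 CPM were read off without a test. Hpd was closest to Gls2, a liver glutaminase, and Mthfd1, of folate metabolism (Pearson's r 0.99 and 0.98). Haao and Fah both had Pecr, a peroxisomal reductase, among their closest 2 (0.99 and 0.99). Tdo2 was closest to the amino acid transporter Slc38a4 (0.96), Ido2 to Cyp2c54 (0.99), Hgd to the carbonic anhydrase Car5a (0.99), Kmo to Hsd3b3 (0.98) and Kynu to Il1rap (0.99). For Tat the closest gene, Pdia4, a chaperone of the endoplasmic reticulum, reached 0.88.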

How the data were processed

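Liver RNA of 22 mice was made into mRNA libraries with unique molecular identifiers and read single-end. The authors trimmed reads with Trimmomatic, aligned them to GRCm38 with STAR and deposited HTSeq counts, whole numbers per gene without normalization, of 55573 genes. The annotation release, the strand setting and any collapsing of identifiers are not given in the sources used here, so errors cover the spread between mice and not amplification. Each library came from 1 mouse, and its group was taken from its label.

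The 14062 genes whose counts averaged at least 10 per library were fitted in R 4.3.3 with edgeR 4.0.16, with TMM factors and all 4 groups in 1 model. Quasi-likelihood p-values are two-sided and were adjusted by the Benjamini-Hochberg method, with a threshold of 0.05. The study's methods name limma, which was an alternative (limma-voom, limma 3.58.1), as were DESeq2 1.42.0, RLE factors, other filters, only the groups compared, the replicate number as a block, a Y-linked covariate, and fits without the 5 chow libraries of low uniquely mapped share or without each mouse. Fits without the libraries with over 100 CPM of Xist and over 20 CPM (2 libraries) or over 10 CPM (5 libraries) of Y-linked genes were added after seeing the data. The SE is the log2 fold change divided by the root of F. The fit was tested on simulated data, and the outcome is not reported here. Positions and exon lengths come from GENCODE M21, in which 93 genes of the table had no position.

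The text names all 9 enzymes, tested genes of the pathway, regulator and Flcn lists, and from other lists the up to 3 genes of smallest p per comparison and up to 2 of highest level, with the 2 genes most like each enzyme. The enzymes and lists were chosen with earlier results of these data known. Values of some tested genes are not reported here. Xist was read after the values of the Y-linked genes had been seen.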

Additional observations from a re-analysis of the deposited data

Results flagged for a closer look

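Single livers stood far from the rest of their group, by Dixon's test at the 95% level, for 5 of the 36 combinations of enzyme and group, and chance gives about 1 in 20. FLCN KO Chow 4 was low for Tdo2, at 696 CPM, and for Ido2, at 53.3 CPM. Kynu was high in FLCN KO Chow 3, at 215 CPM, high in Cre MCD 3, the liver with skeletal muscle RNA, at 98.2 CPM, and low in FLCN KO MCD 2, at 71.8 CPM.

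The response of Kynu to MCD differed between the genotypes by 0.66 on the log2 scale, by a test of the interaction (edgeR adjusted p = 0.042). Of the 10 alternatives that were not single mice left out, 4 passed, and their adjusted p ran from 0.022 to 0.25.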

How the results depend on the processing

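No called log2 fold change of an enzyme changed direction in any alternative. With MCD, the 8 called enzymes in Cre mice and the 9 in liver-Flcn-/- mice were called under all 11 alternatives and in all 22 fits that left out 1 mouse, and these fits called 8 to 9 and 9 enzymes. Between genotypes on chow the 0 calls became 1 with DESeq2, 2 with only the groups compared (Haao and Ido2), 1 with the Y-linked covariate and 0 to 1 with single mice left out. On MCD the 2 calls became 3 with the Y-linked covariate, which added Kynu, 1 with limma-voom, 1 without a filter on low counts, 1 with only the groups compared, 1 with the replicate block, 1 without the 2 libraries with over 20 CPM of Y-linked genes and Xist RNA, 0 without the 5 with over 10 CPM, and 0 to 2 with single mice left out. Tat passed in 9 of the 11 alternatives and 17 of the 22 fits, and Kmo in 6 and 5. For the interaction the 1 call became 0 with at least 10 counts in every library, without a filter, with the replicate block, without the 5 chow libraries of low uniquely mapped share and without the 2 or the 5 libraries with Y-linked and Xist RNA, and was 0 to 1 with single mice left out. The cause was not tested.

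Over all groups, replicate numbers did not pair the mice: the deviations of mice with the same number correlated by 0.00613 on average over 31 pairs (−0.551 to 0.470). For the 5 pairs of Cre and liver-Flcn-/- mice on MCD the average was 0.13 (0.062 to 0.26). The averages for the other pairs of groups ran from −0.084 to 0.061. With the replicate block 552 genes were called for the interaction in place of 1242. Without the 5 chow libraries of low uniquely mapped share the counts were 779 for the interaction and 494 in place of 1212 for the genotypes on chow. Without these 2 libraries the interaction called 690, and without the 5 it called 84, with 463 genes called between genotypes on chow and 1194 in place of 2333 on MCD. The other pathway genes called on chow fell from 2 to 0 without a filter on low counts and without the 5 libraries, and to 1 with only the groups compared, with the replicate block and without the 5 chow libraries of low uniquely mapped share, and were 0 to 4 with single mice left out. Those called for the interaction fell from 2 to 0 without the 5 libraries, and were 2 to 6 with single mice left out. Without FLCN KO Chow 4 it called 820 and the genotypes on chow 670, and without Cre MCD 1 the interaction called 819.

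With library totals in place of TMM, 8 of 36 mean levels moved by more than 1 SD: in Cre mice on chow Hgd to 759, Fah to 724, Ido2 to 76.8 and Haao to 586 CPM, in Cre mice on MCD Fah to 416 CPM, and in liver-Flcn-/- mice on MCD Hgd to 426, Kmo to 143 and Kynu to 98.7 CPM. With RLE none of the 36 moved so far. Log2 fold changes were not fitted with library totals.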

Other observations

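Most tested genes of other amino acid catabolism were also called lower with MCD. Of 38 tested genes, 30 were called lower and 2 higher with MCD in Cre mice (median log2 fold change −0.83), and 23 lower and 4 higher in liver-Flcn-/- mice (median −0.44), where 28.2 and 22.5% of tested genes were called lower. Otc, of the urea cycle, changed by −2.74 and −2.28. Amdhd1, of histidine breakdown, changed by −1.66 in Cre and −0.58 in liver-Flcn-/- mice, and Mccc2, of leucine breakdown, by −1.39 and −0.86. The interaction was called for 10 of the 38, all with a positive sign, among them Amdhd1 (1.08, edgeR adjusted p = 7.8e-05) and Mccc2 (0.53, edgeR adjusted p = 0.0051), where 3.29% of tested genes were called positive. Without the 5 libraries with both Y-linked and Xist RNA only Amdhd1 of the 10 was called (1.00, edgeR adjusted p = 0.0098). On chow 34 of the 38 estimates were negative in liver-Flcn-/- against Cre mice, with 4 called.

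Of 10 tested genes of NAD synthesis and use, 5 were called lower with MCD in Cre and 4 in liver-Flcn-/- mice, and none higher, beside the same 28.2 and 22.5% of tested genes called lower. The medians were −0.58 and −0.07. Nmnat3, which makes NAD from nicotinamide mononucleotide, fell by 0.79 in Cre mice and stood at 0.26 in liver-Flcn-/- mice, which was not called (edgeR adjusted p = 0.089). Its interaction was 1.05 (edgeR adjusted p = 0.0014), and 0.97 without the 5 libraries with both Y-linked and Xist RNA (edgeR adjusted p = 0.049). Naprt, of the nicotinic acid route, changed by −1.12 and −0.73. Of 6 tested targets of the aryl hydrocarbon receptor, for which kynurenine is a ligand, 3 were called higher and 2 lower in Cre mice, and 0 higher and 2 lower in liver-Flcn-/- mice, with medians of 0.61 and 0.08, where 29.3 and 22.5% of tested genes were called higher. Cyp1a2 fell by 2.11 and 2.03 on the log2 scale. Cyp1a1 rose by 1.16 in Cre mice, and its 0.14 in liver-Flcn-/- mice was not called (edgeR adjusted p = 0.74).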
